A study of Danio rerio with 47 samples.

Results

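Genes of the TGF-beta, BMP and activin signalling system were followed in the trunks of young zebrafish that had few or many primordial germ cells. They were taken by name: every row of the expression table whose gene name starts as a BMP, a BMP receptor, a numbered growth differentiation factor, an inhibin or activin subunit, a Smad, a TGF-beta gene, an activin receptor, a follistatin, a noggin or a gremlin. The oocyte factors bmp15 and gdf9 were left out. Of 62 rows that matched, 60 remained, out of 31475 rows in the table. All 60 were measured on every array. Of these names 55 are current symbols and 5 are older ones (among them, acvr1b is now acvr1ba, acvr2b acvr2ba, smad4 smad4a and tgfbr2 tgfbr2b).

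The morphants had been injected as one-cell embryos with a morpholino, an antisense oligonucleotide, against dnd, whose product primordial germ cells need to survive. They were screened at 24 hours post fertilization, and the morphants described here belong to the class with a low germ cell number, 1 to 9. The wild-type fish belong to the class with a high number. Trunk RNA was amplified and hybridized to 1-colour arrays, and trunks were taken at 14 and 22 days post fertilization (dpf). The younger age has 9 arrays of morphants and 14 of wild type, the older age 10 of morphants and 14 of wild type. One fish or a pool per array is not specified in the labels, which count 10 morphant replicates at 14 dpf, of which 9 are analysed here. A trunk holds muscle, skin, skeleton, gut and blood vessels besides the gonad, so in these bulk samples fewer cells of a type and less RNA per cell cannot be told apart.

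Ligands of this superfamily bind paired type I and type II receptor kinases, which phosphorylate Smad proteins. Activins and TGF-betas act mainly through Smad2 and Smad3, and BMPs mainly through Smad1, Smad5 and Smad9. Both kinds of Smad enter the nucleus with Smad4, while Smad6 and Smad7 restrain the pathway and follistatins, noggins and gremlins bind ligands outside the cell. In vertebrate gonads members of the family take part in germ cell maintenance, follicle growth and the differentiation of the supporting cells.

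Values are log2 intensities, and a difference is the morphant mean minus the wild-type mean, with its standard error. A row is called where limma gave a Benjamini-Hochberg adjusted p below 0.05 over all 31475 rows. Array medians lay between 7.26 and 7.70. Germ cell markers fell in the morphants, with 11 of 14 called at 14 dpf and 14 of 14 at 22 dpf, and their mean level per array was 5.36 to 7.38 in morphants and 6.74 to 9.01 in wild type at 14 dpf, and 5.56 to 8.31 in morphants and 7.59 to 10.47 in wild type at 22 dpf. Morphant arrays 1 and 2 at 22 dpf stood apart from the other 8, with germ cell means of 8.21 and 8.31 and oocyte marker means of 7.89 and 7.88, inside the wild-type ranges. Calls at 22 dpf, and the members' calls over both ages, are therefore also given with both left out, an alternative chosen after the data were seen. At 14 dpf the germ cell mean of morphant array 3, at 7.38, also lay inside the wild-type range, while the other morphant arrays did not exceed 6.39. A morpholino can leave the transcript of its target in place, so the level of dnd is no check of the labels. The dnd row had medians of 5.86 in morphants and 7.26 in wild type at 14 dpf (limma adjusted p = 0.295) and of 5.22 in morphants and 9.72 in wild type at 22 dpf (2.78e-05). Within groups, 6 pairs of arrays deviated from their group mean together, with correlations of 0.639 to 0.893, while the next pair had 0.413. Morphant arrays 1 and 2 at 22 dpf were such a pair (0.749), and so were morphant arrays 3 and 4 of that age (0.720). Whether such a pair carries the same RNA was not tested, so results are also given with these pairs averaged, which leaves 8 morphant and 14 wild-type samples at 14 dpf and 8 morphant and 11 wild-type samples at 22 dpf.

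At 14 dpf none of the 60 genes passed the test, and at 22 dpf 1 did, the ligand gdf2, which was lower in morphants. The share of all rows called was 2.48% at 14 dpf and 3.49% at 22 dpf, so the members' shares of 0 and 1.67% were not above the background. At an unadjusted p below 0.05 there were 10 members at 14 dpf, 16.7% of them, beside 16.7% of all rows. At 22 dpf there were 8, or 13.3%, beside 13.9% of all rows. The median difference over the members was 0.10 at 14 dpf and 0.07 at 22 dpf, beside -0.01 and 0.04 over all rows. A positive difference was found for 39 of 60 members at 14 dpf and 36 at 22 dpf, beside 15351 and 17385 of all 31475 rows. The morphant and wild-type values of every member overlapped at both ages, where groups without overlap made up 0.0477% of all rows at 14 dpf and 0.0508% at 22 dpf.

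These counts do not show that the genes were alike in morphants and wild type. The 95% interval of the difference lay within 1 log2 unit of 0 for 45 of 60 members at each age, and within 0.5 for 5 members at 14 dpf and 9 at 22 dpf. The narrowest intervals reached 0.188 and 0.182 log2 units either side of the estimate, and the widest 1.37 and 1.33.

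**Figure D1:**
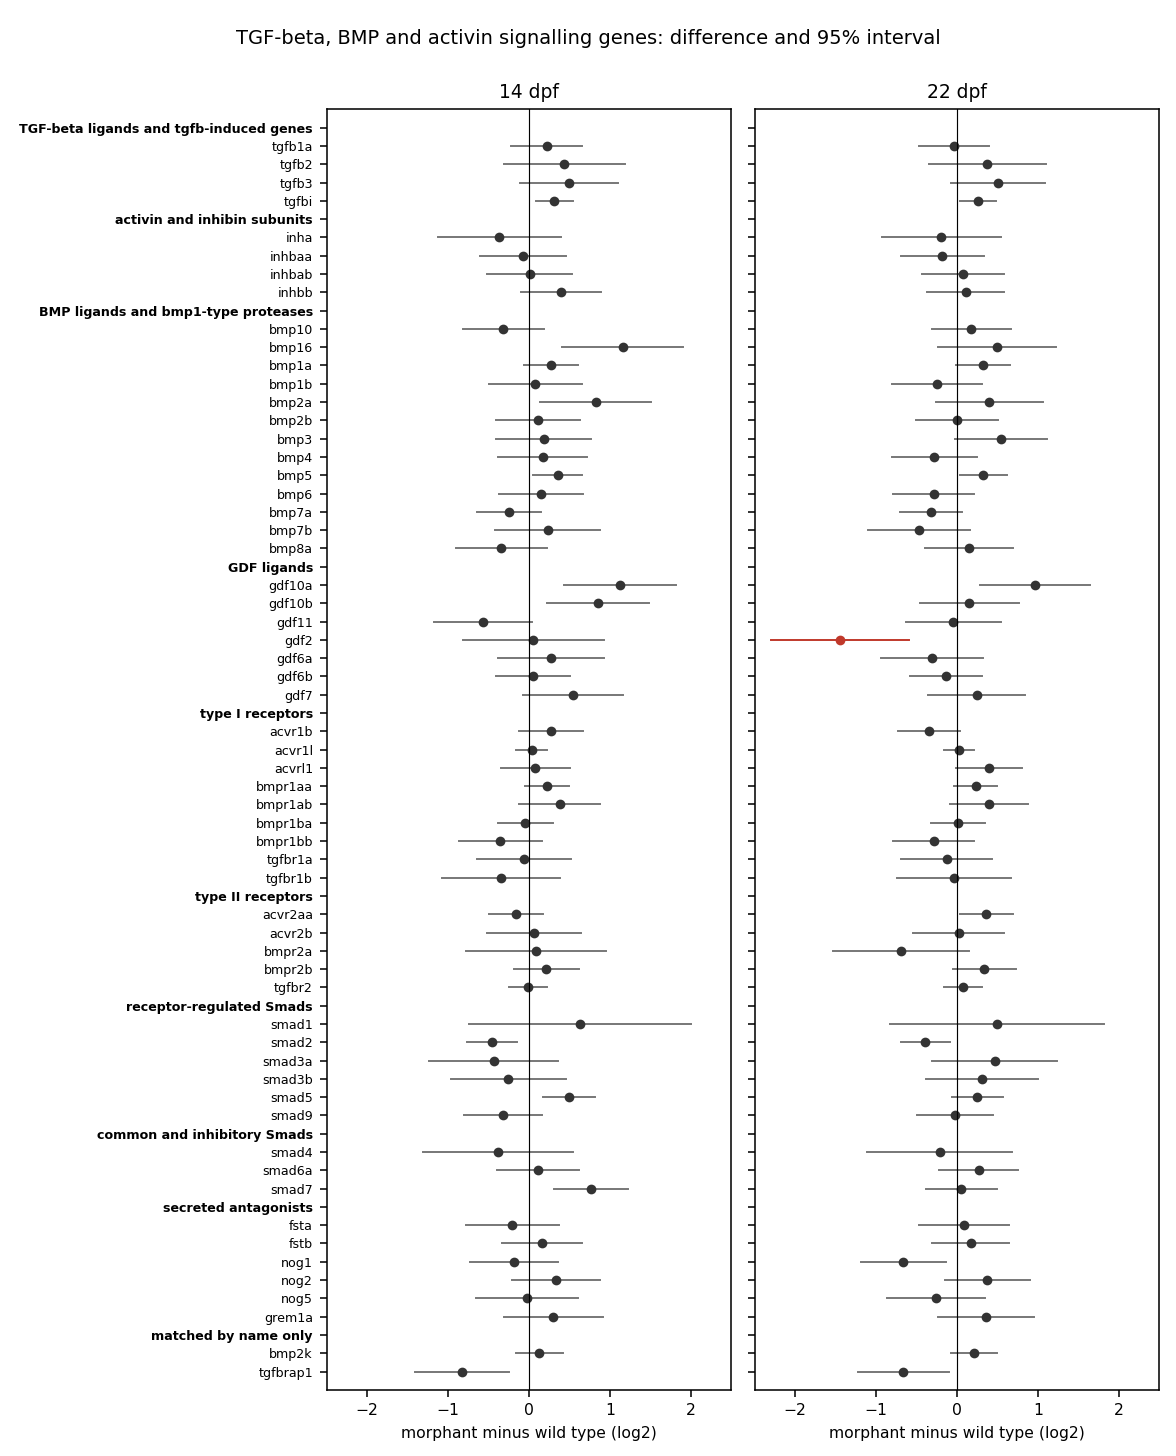
Difference of the mean log2 intensity, morphant minus wild type, for 59 of the 60 genes at 14 and 22 dpf, grouped by role, with 95% intervals. Most differences lie within 0.5 log2 units of 0, the longest positive ones belong to bmp16 and gdf10a at 14 dpf, and gdf2 at 22 dpf, at -1.45, lies furthest below 0.

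Among the TGF-beta ligands, tgfb1a, tgfb2 and tgfb3 had differences of 0.22, 0.44 and 0.50 at 14 dpf and of -0.04, 0.38 and 0.50 at 22 dpf, and none was called at either age. The matrix protein gene tgfbi, named for its induction by TGF-beta, had 14.30 as its lowest, 14.51 as its median and 14.79 as its highest value in morphants at 14 dpf, against 13.76, 14.26 and 14.51 in wild type. All 9 morphant arrays exceeded the wild-type median and 4 lay above every wild-type array. The difference was 0.32 ± 0.11, with a limma adjusted p of 0.121. At 22 dpf tgfbi had 13.54, 13.80 and 14.42 in morphants and 13.12, 13.66 and 14.00 in wild type, a difference of 0.26 ± 0.11 with an adjusted p of 0.246. There too 4 morphant arrays exceeded every wild-type array.

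The activin beta subunits inhbaa, inhbab and inhbb had differences of -0.08, 0.01 and 0.40 at 14 dpf and of -0.18, 0.07 and 0.11 at 22 dpf, none of them called. The alpha subunit inha, which turns a beta subunit into the activin antagonist inhibin, had a median of 4.62 in morphants and 4.94 in wild type at 14 dpf. A single wild-type array stood at 9.87 there, while the others did not exceed 5.63. At 22 dpf the medians of inha were 4.66 in morphants and 4.88 in wild type.

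Of the 13 rows for BMP ligands and bmp1-type proteases, 10 had a positive difference at 14 dpf and 8 at 22 dpf, and none was called at either age. bmp16, a fish ligand close to bmp2 and bmp4, had 6.62, 8.61 and 9.21 as its lowest, median and highest values in morphants at 14 dpf, against 5.05, 7.51 and 9.58 in wild type. The difference, 1.16 ± 0.37, was the largest positive one of the 60 at that age, and its limma adjusted p was 0.0796. The groups overlapped, with 3 of 14 wild-type arrays below every morphant array. Morphant array 2 was the lowest of its group, and wild-type array 23 the highest of its own. Without that morphant array the adjusted p was 0.0304, and without that wild-type array it was 0.0318. Either removal necessarily widens the difference, to 1.39 and 1.34. Leaving out any other single array of that age gave no call for bmp16. With the 6 pairs averaged the limma adjusted p was 0.163. At 22 dpf the difference was 0.49 ± 0.36, with 8 of 10 morphant arrays above the wild-type median.

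bmp2a, a ligand of the bmp2 and bmp4 subfamily, had differences of 0.83 ± 0.34 at 14 dpf and 0.40 ± 0.33 at 22 dpf. The limma adjusted p at 14 dpf was 0.19, which became 0.0386 without morphant array 2 and 0.333 with the 6 pairs averaged. That array was the lowest of its group, so its removal widens the difference, to 1.13. Leaving out any other single array of that age gave no call for bmp2a. The 14 dpf value of bmp2a differed with the numbers that the sample titles carry. Among arrays numbered 1 to 12 the difference was -0.23, and among those from 13 on it was 1.97, where it was called with a limma adjusted p of 0.0105. Whether those numbers mark a batch is not known.

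bmp5, a ligand of the bmp5 to bmp8 branch, had differences of 0.36 ± 0.15 at 14 dpf and 0.33 ± 0.15 at 22 dpf. In morphants 8 of 9 and 9 of 10 arrays lay above the wild-type median, and neither age was called, with limma adjusted p values of 0.204 and 0.288. The proteases bmp1a and bmp1b, which cleave the BMP antagonist chordin and procollagens and are not ligands, had differences of 0.27 and 0.08 at 14 dpf and 0.32 and -0.25 at 22 dpf. The other 8 ligands (bmp10, bmp2b, bmp3, bmp4, bmp6, bmp7a, bmp7b and bmp8a) had differences between -0.34 for bmp8a and 0.23 for bmp7b at 14 dpf. At 22 dpf the same ligands lay between -0.47 for bmp7b and 0.54 for bmp3. None of these was called.

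Among the growth differentiation factors, gdf10a, a relative of bmp3, was the member whose difference was about 1 log2 unit at both ages. In morphants at 14 dpf its lowest, median and highest values were 7.02, 9.32 and 10.20, against 5.83, 8.19 and 9.32 in wild type. At 22 dpf they were 6.63, 8.22 and 8.88 in morphants and 5.99, 7.05 and 8.55 in wild type. The differences were 1.13 ± 0.35 and 0.97 ± 0.34, with limma adjusted p values of 0.0659 and 0.115. Above the wild-type median lay 8 of 9 morphant arrays at 14 dpf and 9 of 10 at 22 dpf, and the exceptions were single low arrays, number 2 at 14 dpf and number 18 at 22 dpf. Without these the adjusted p was 0.0143 at 14 dpf and 0.0456 at 22 dpf, where leaving out a low morphant array necessarily widens the difference. At 14 dpf gdf10a also passed when morphant array 3 was left out (0.0483), and likewise for arrays 8 (0.0445) and 12 (0.0435) of wild type. Leaving out any other single array gave no call for gdf10a at either age. With the 6 pairs averaged gdf10a was not called, with limma adjusted p values of 0.167 at 14 dpf and 0.319 at 22 dpf. The duplicate gdf10b had 0.86 ± 0.31 at 14 dpf (adjusted p = 0.132) and 0.16 ± 0.30 at 22 dpf.

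gdf2 encodes BMP9, a circulating ligand that in mammals is made mainly in the liver and acts on the endothelial receptor encoded by acvrl1. In morphants at 22 dpf its lowest, median and highest values were 3.90, 5.17 and 5.43, against 4.75, 5.87 and 9.27 in wild type, with means of 4.99 ± 0.46 (SD, n = 10) and 6.43 ± 1.60 (SD, n = 14). All 10 morphant arrays were under the wild-type median, while 4 wild-type arrays stood at 7.68 or above. Among these 4 were arrays 5 and 6, the pair with the highest correlation (0.893). The difference was -1.45 ± 0.42 with a limma adjusted p of 0.0399. The call was lost with the 6 pairs averaged (-1.47, adjusted p = 0.0949, beside 2.12% of all rows called in that fit), with the 22 dpf arrays fitted alone (0.110) and when any of 13 of the 24 arrays was left out (8 morphant arrays, numbers 1 to 4, 13, 14, 16 and 17, and wild-type arrays 5, 6, 19, 21 and 22), with adjusted p values from 0.0167 to 0.0900 over the 24. Among these 13 arrays, morphant arrays 1 and 2, morphant arrays 3 and 4, and wild-type arrays 5 and 6 were correlated pairs. With morphant arrays 1 and 2 both left out the difference was -1.39 with an adjusted p of 0.107. Among title numbers 1 to 12 the difference was -1.04, and from 13 on it was -1.98, neither of them called (limma adjusted p = 0.472 and 0.135). At 14 dpf gdf2 showed a difference of 0.06 ± 0.43, and the difference between the ages was -1.50 ± 0.60, with an adjusted p of 0.308. Its 14 dpf medians were 4.78 in morphants and 4.72 in wild type, near the lower end of the scale. A lower level in morphants could hardly show there.

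The other growth differentiation factors were gdf6a, gdf6b, gdf7 and gdf11, with differences between -0.57 for gdf11 and 0.55 for gdf7 at 14 dpf and between -0.31 for gdf6a and 0.24 for gdf7 at 22 dpf. None was called.

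The 9 type I receptors had differences from -0.35 for bmpr1bb to 0.38 for bmpr1ab at 14 dpf, and from -0.34 for acvr1b to 0.40 for acvrl1 and bmpr1ab at 22 dpf, with none called. The BMP receptor bmpr1ab had a median of 9.32 in morphants and 9.03 in wild type at 14 dpf, and of 9.08 in morphants and 8.66 in wild type at 22 dpf. At 14 dpf all 9 morphant arrays exceeded the wild-type median, and at 22 dpf 8 of 10 did. Its paralogue bmpr1aa had differences of 0.23 at both ages, with unadjusted p values of 0.105 and 0.0856 in limma. acvrl1, the endothelial receptor for gdf2, had 0.08 ± 0.21 at 14 dpf and 0.40 ± 0.20 at 22 dpf (adjusted p = 0.375). The interval was narrowest for acvr1l, a BMP receptor that patterns the early embryo, at -0.15 to 0.22 at 14 dpf and -0.16 to 0.21 at 22 dpf. The TGF-beta receptors tgfbr1a and tgfbr1b had -0.06 and -0.34 at 14 dpf and -0.13 and -0.03 at 22 dpf.

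The 5 type II receptors were not called either. acvr2aa, which binds activins and several BMPs, had 6.69, 6.98 and 7.39 in morphants and 5.81, 6.66 and 7.20 in wild type at 22 dpf. All 10 morphant arrays exceeded the wild-type median, with a difference of 0.36 ± 0.16 and a limma adjusted p of 0.277, while at 14 dpf the difference was -0.16. The BMP receptor bmpr2b had differences of 0.22 and 0.34 at 14 and 22 dpf, and bmpr2a 0.09 and -0.69. tgfbr2 had intervals of -0.25 to 0.23 and -0.16 to 0.30.

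Among the receptor-regulated Smads, smad2, which carries activin and TGF-beta signals, had 7.82, 8.22 and 8.61 as its lowest, median and highest values in morphants at 14 dpf, against 8.13, 8.60 and 9.29 in wild type. At 22 dpf it had 8.39, 8.73 and 9.34 in morphants and 8.46, 9.10 and 9.98 in wild type. All but 1 of the morphant arrays of each age were under the wild-type median. The differences were -0.45 ± 0.16 and -0.39 ± 0.15, with limma adjusted p values of 0.106 and 0.177.

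smad5, which carries BMP signals, had 12.51, 12.69 and 13.27 in morphants and 11.75, 12.33 and 12.78 in wild type at 14 dpf, so that all 9 morphant arrays exceeded the wild-type median. At 22 dpf it had 11.12, 11.86 and 12.23 in morphants and 10.58, 11.47 and 12.28 in wild type. The differences were 0.49 ± 0.16 (limma adjusted p = 0.0832) and 0.25 ± 0.16 (adjusted p = 0.518). The other 4 receptor-regulated Smads were not called at either age, and smad1 had the widest interval of all members, reaching 1.37 log2 units either side of its difference of 0.63 at 14 dpf and 1.33 either side of 0.49 at 22 dpf. smad3a had -0.43 at 14 dpf and 0.47 at 22 dpf, smad3b -0.25 and 0.31, and smad9 -0.32 and -0.03.

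smad7, an inhibitory Smad that is itself a target of the pathway, had the smallest adjusted p of the members at 14 dpf. Its lowest, median and highest values there were 9.85, 11.01 and 11.42 in morphants and 8.55, 10.24 and 11.36 in wild type, with 8 of 9 morphant arrays above the wild-type median. The difference was 0.77 ± 0.23, with a limma adjusted p of 0.0525. It passed the threshold with each array centred on its median (0.0428), with the title number groups as a term (0.0369) and over the rows whose mean reached 6 (0.0381). It also passed without morphant array 15 (0.0253) or wild-type array 9, 10 or 12 (0.0445, 0.0394 and 0.0172). Leaving out any other single array of that age gave no call. Nor was smad7 called with the 6 pairs averaged (limma adjusted p = 0.100), with the 14 dpf arrays fitted alone or after quantile normalization. The other variance model and the separate title number groups gave no call either. At 22 dpf smad7 had a difference of 0.05 ± 0.22. The difference between the ages was -0.71 ± 0.31 with an adjusted p of 0.374. The other inhibitory Smad, smad6a, had 0.11 and 0.27, and the common partner smad4 had -0.38 and -0.22, both without a call.

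**Figure D2:**
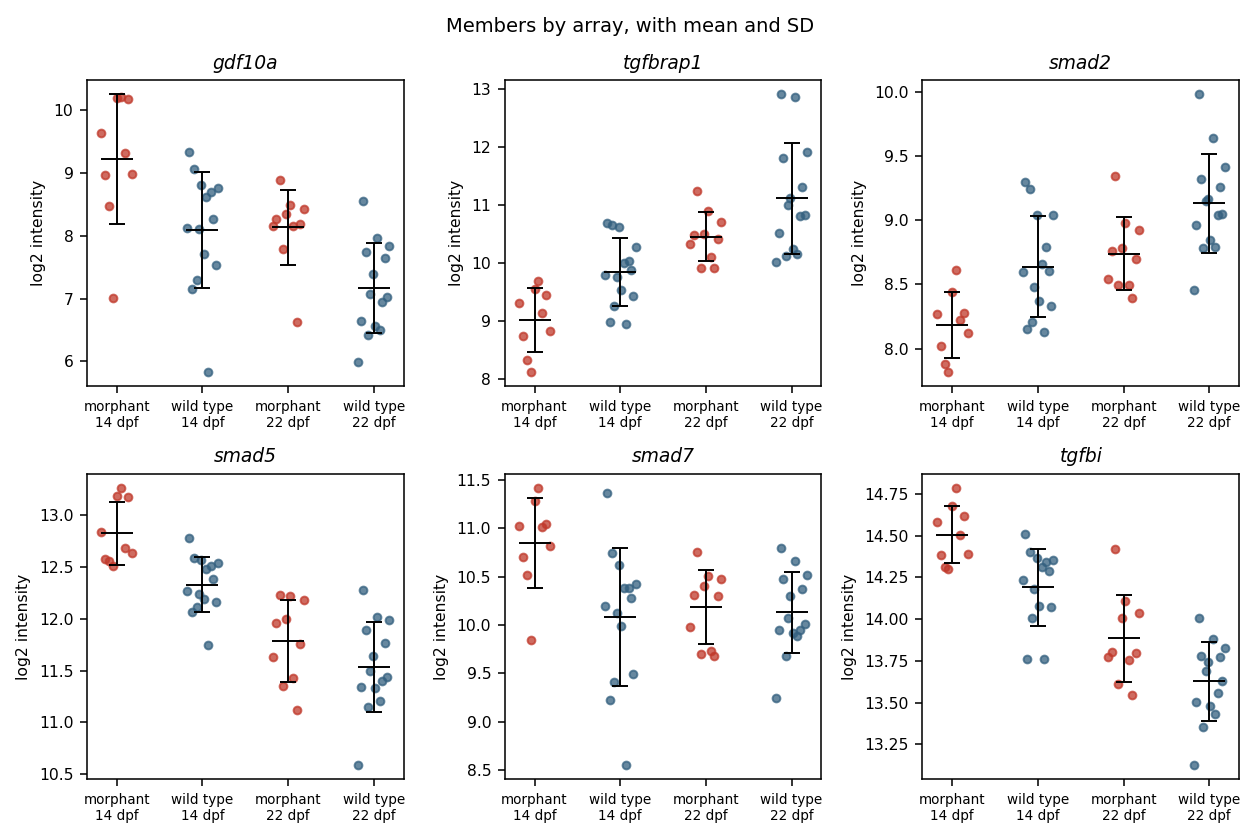
Log2 intensity on each array for gdf10a, tgfbrap1, smad2, smad5, smad7 and tgfbi, with morphants left of wild type at 14 and then at 22 dpf, and bars for the mean and SD. For gdf10a, smad5 and tgfbi the morphant mean lies above that of wild type at both ages, for tgfbrap1 and smad2 below it, and for smad7 above it at 14 dpf (0.77) and close to it at 22 dpf (0.05); the groups overlap in every panel.

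Among the secreted antagonists, the BMP-binding noggin nog1 had 5.12, 6.11 and 6.66 in morphants and 5.86, 6.95 and 7.87 in wild type at 22 dpf. All 10 morphant arrays were under the wild-type median. The difference was -0.66 ± 0.26, with a limma adjusted p of 0.188, and at 14 dpf it was -0.18 ± 0.27. nog2 had 0.34 at 14 dpf and 0.38 at 22 dpf, and nog5 -0.02 and -0.26. The gremlin grem1a, which binds BMPs, had 0.30 and 0.36. The follistatins, which bind activins, had -0.20 and 0.08 for fsta and 0.16 and 0.17 for fstb, and none of the 7 antagonists was called.

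Besides bmp1a, bmp1b and tgfbi, a pair of members matched by name without being ligands, receptors, Smads or antagonists. bmp2k, a kinase first described as induced by BMP2, had 0.13 at 14 dpf and 0.21 at 22 dpf. tgfbrap1, whose product binds TGF-beta receptors and is also part of an endosomal tethering complex, had 8.13, 9.15 and 9.70 in morphants and 8.96, 9.84 and 10.69 in wild type at 14 dpf. At 22 dpf it had 9.92, 10.46 and 11.25 in morphants and 10.02, 10.92 and 12.91 in wild type. The differences were -0.83 ± 0.29 and -0.66 ± 0.28, with limma adjusted p values of 0.112 and 0.242. All 9 morphant arrays at 14 dpf and 9 of 10 at 22 dpf were under the wild-type median.

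The difference of the morphant effects between the ages was not called for any of the 60 members, beside 0.645% of all rows, and 4 members had an unadjusted p below 0.05 in limma, or 6.67% of them, beside 11.1% of all rows. Differences had the same sign at both ages for 41 of 60 members, 68.3%, beside 57.4% of all rows. Across the 60 members the 14 and 22 dpf differences correlated with r = 0.468, and across all rows with r = 0.289. Genes are not independent replicates, so these are descriptions. At an unadjusted p below 0.05 in the same direction at both ages there were 5 members, 8.33% of them, beside 2.72% of all rows: gdf10a, bmp5 and tgfbi were higher in morphants, and smad2 and tgfbrap1 lower.

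**Figure D3:**
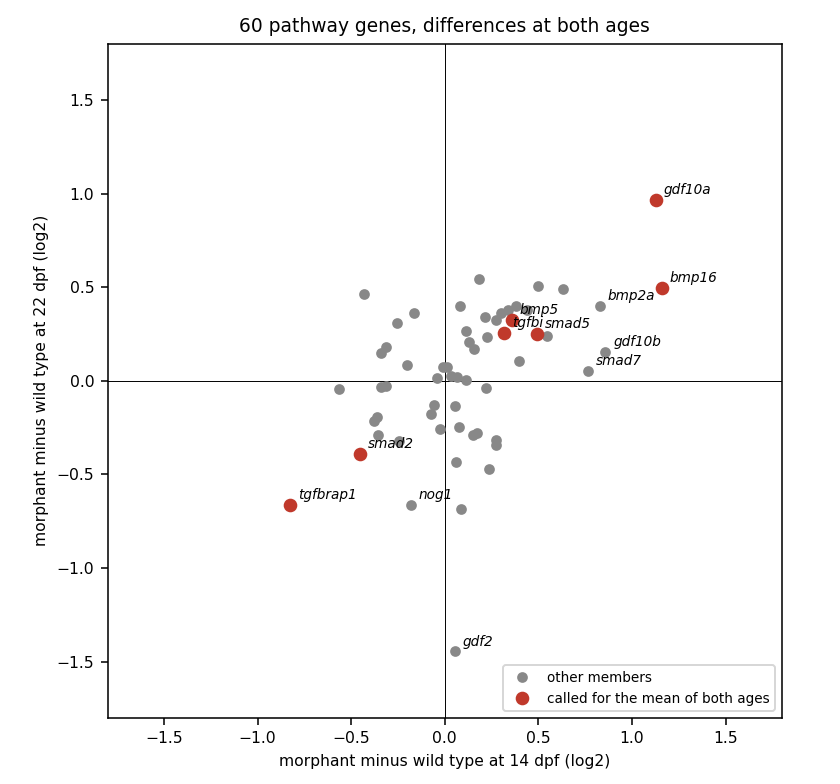
Difference of the mean log2 intensity, morphant minus wild type, at 14 dpf on the x axis and at 22 dpf on the y axis, 1 point for each of the 60 genes. gdf10a lies near 1 on both axes, tgfbrap1 and smad2 lie below 0 on both, gdf2 lies at 0.06 and -1.45, and smad7 at 0.77 and 0.05.

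After these values were seen, the mean of both differences was tested in the same fit. It was called for 7 members, 11.7% of them, beside 6.27% of all rows. These were gdf10a (1.05 ± 0.24, limma adjusted p = 0.00424), bmp16 (0.83, 0.0439), smad5 (0.37, 0.0335), bmp5 (0.34, 0.0392) and tgfbi (0.29, 0.0182), which were higher in morphants, and tgfbrap1 (-0.75, 0.0165) and smad2 (-0.42, 0.0114), which were lower. Of all rows 2.73% were called higher and 3.54% lower. With the 6 pairs averaged 4 remained, beside 3.74% of all rows: gdf10a (0.0281), smad5 (0.0278), smad2 (0.0326) and tgfbrap1 (0.0326). Leaving out each of the 47 arrays in turn, gdf10a, smad2, tgfbi and tgfbrap1 kept the call every time, smad5 41 times, bmp5 31 times and bmp16 19 times. With morphant arrays 1 and 2 at 22 dpf both left out, gdf10a (limma adjusted p = 0.00953), smad2 (0.0193), tgfbrap1 (0.0318) and bmp16 (0.0432) were called, while tgfbi, smad5 and bmp5 were not, and 1635 rows were called in place of 1975. For gdf10a the mean was 0.92 among title numbers 1 to 12 and 1.20 from 13 on, for smad2 -0.30 and -0.52, and for tgfbrap1 -0.74 and -0.70, none of them called within a number group. Since the contrast was chosen with both ages in view, it is not independent of the sentences above.

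Levels of some members lay apart between the ages, which were not tested against each other, because the sources do not say whether both were normalized together. Chosen for that gap, bmp3 had medians of 10.53 in morphants and 10.24 in wild type at 14 dpf, and 8.91 in morphants and 8.18 in wild type at 22 dpf. nog1 had 8.10 in morphants and 8.34 in wild type at 14 dpf and 6.11 in morphants and 6.95 in wild type at 22 dpf. In the other direction lay bmp8a, with 8.13 in morphants and 8.21 in wild type at 14 dpf and 10.36 in morphants and 10.31 in wild type at 22 dpf. The activin antagonist fstb had 11.09 in morphants and 10.65 in wild type at 14 dpf and 9.45 in morphants and 9.42 in wild type at 22 dpf. By mean over all arrays tgfbi, smad5 and acvr1l were the brightest rows, at 14.0, 12.1 and 11.5, and inha, nog5 and gdf6b the dimmest, at 4.98, 5.12 and 5.24. Probes differ in brightness, so these means do not order the transcripts.

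Other genes of the pathway were looked up by a list of 118 names, of which 84 were measured. At 14 dpf 2 of 84 rose and none fell, where 1.15% of all rows rose, and at 22 dpf none rose and 3 fell, where 2.89% of all rows fell. Those shares were 2.38% and 3.57% of the list. At 14 dpf the risers were id1 and ndr2. id1, a helix-loop-helix inhibitor that BMP signals induce through Smad1 and Smad5, had 12.86, 13.23 and 13.74 in morphants and 11.99, 12.65 and 13.37 in wild type. All 9 morphant arrays exceeded the wild-type median, with a difference of 0.61 ± 0.15 and a limma adjusted p of 0.0229. This became 0.0513 with the 6 pairs averaged and 0.0584 without morphant array 13. The call was also lost with the 14 dpf arrays fitted alone (0.0638) and within title numbers 1 to 12, where the difference was 0.44 (0.458), and from 13 on, where it was 0.78 (0.0586). At 22 dpf id1 had 0.15 ± 0.15. The related id2a and id3 had 0.47 (adjusted p = 0.146) and 0.31 (0.307) at 14 dpf, and -0.03 and 0.00 at 22 dpf.

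ndr2, a Nodal ligand that patterns mesoderm and the ventral brain in the embryo, had 5.56, 6.64 and 8.69 in morphants and 4.62, 5.74 and 6.05 in wild type at 14 dpf. Of 9 morphant arrays 6 exceeded every wild-type array, with a difference of 1.03 ± 0.26 and a limma adjusted p of 0.0235. The call was lost with the 14 dpf arrays fitted alone (0.0673) and within both number groups, where the difference was 1.35 among 1 to 12 (0.114) and 0.63 from 13 on (0.417). Morphant array 2 held the highest value, and without it the difference was 0.78 with an adjusted p of 0.0573. At 22 dpf the difference was -0.07 ± 0.25. Leukocyte markers were also higher in morphants at 14 dpf, with 3 of 13 called, all 13 differences positive and a median of 0.74. Their mean levels per array were 9.77 to 10.75 in morphants and 8.61 to 10.07 in wild type. Markers of trunk muscle (0 of 10 called) and of bone and cartilage (0 of 8) had no call at 14 dpf. Of 7 skin markers 1 was called lower, while all 7 differences were negative, with a median of -0.28. Liver markers had no call either (0 of 7), though 6 of 7 differences were negative, with a median of -0.51 and mean levels per array of 6.02 to 8.07 in morphants and 6.01 to 13.10 in wild type. Exocrine pancreas markers also had no call (0 of 8), while all 8 differences were positive and 4 exceeded 1 log2 unit. Their median was 0.95, and mean levels per array were 7.79 to 12.80 in morphants and 7.35 to 12.26 in wild type. The part of leukocyte, skin, liver and pancreas markers in the 14 dpf differences of smad7, id1, ndr2 and the other members was not tested.

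At 22 dpf gdf3 (listed as dvr1), foxh1 and gsdf fell. gdf3, the ligand that pairs with Nodal in the early fish embryo and is stored in the egg, had 4.58, 4.97 and 6.34 in morphants and 5.0, 7.82 and 12.45 in wild type, a difference of -3.26 ± 0.58 with a limma adjusted p of 0.00011. foxh1, the DNA-binding partner of Smad2 downstream of Nodal, had 3.68, 4.30 and 5.10 in morphants and 4.35, 6.94 and 11.28 in wild type, a difference of -2.79 ± 0.56 with an adjusted p of 0.000621. No morphant array reached the wild-type median of either gene, and the wild-type values spread more widely than those of morphants. Both calls stood with the 6 pairs averaged (0.0011 and 0.0048), without any single array and with morphant arrays 1 and 2 both left out (-3.38 for gdf3 and -2.74 for foxh1). Within title numbers they did not all stand. The call of gdf3 was lost among numbers 1 to 12 (-2.86, limma adjusted p = 0.167) and kept from 13 on (-3.67, 0.0023). That of foxh1 was lost in both, at -2.92 among 1 to 12 (0.106) and -2.58 from 13 on (0.0647).

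gsdf, a TGF-beta family factor made by the supporting cells of the gonad, had 4.96, 5.75 and 7.26 in morphants and 6.48, 7.49 and 8.50 in wild type at 22 dpf. In morphants 8 of 10 arrays lay below every wild-type array. The difference was -1.55 ± 0.35 with a limma adjusted p of 0.00284, or 0.0090 with the 6 pairs averaged. With morphant arrays 1 and 2 both left out it was -1.87 and stayed called. Among title numbers 1 to 12 the call was lost (-1.11, limma adjusted p = 0.328), and from 13 on it was kept (-1.83, 0.0476). At 14 dpf the difference was -1.10 ± 0.36 with an adjusted p of 0.0838. Among markers of the gonad's somatic cells, a list that includes gsdf and amh, 2 of 12 fell at 14 dpf and 4 of 12 at 22 dpf. At 14 dpf 5 of the 12 differences were positive, up to 1.70, with a median of -0.06. Mean levels per array there were 5.79 to 7.06 in morphants and 5.80 to 6.87 in wild type. At 22 dpf 2 of 12 were positive, with a median of -0.28, and levels were 5.87 to 6.55 in morphants and 6.45 to 7.01 in wild type. amh, which Sertoli and granulosa cells secrete, had differences of 0.03 ± 0.30 and 0.28 ± 0.29. None of the 84 genes had a called difference between the ages, and foxh1 had the lowest adjusted p at 0.0678. The mean of both differences was called for 11 of 84, 13.1%, beside 6.27% of all rows. Higher in morphants were the BMP antagonist chrdl2 (1.04), the follistatin-like fstl1a (0.70) and fstl3 (0.68), the BMP co-receptor rgma (0.48) and id1 (0.38). Lower were gdf3 (-1.77), fkbp1ab (-1.38), gsdf (-1.32), foxh1 (-1.31), the homeobox gene ved (-0.72) and the Nodal co-receptor oep (-0.44). With the 6 pairs averaged gsdf, gdf3 and chrdl2 kept the call, 3.57% of the list, beside 3.74% of all rows.

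**Figure D4:**
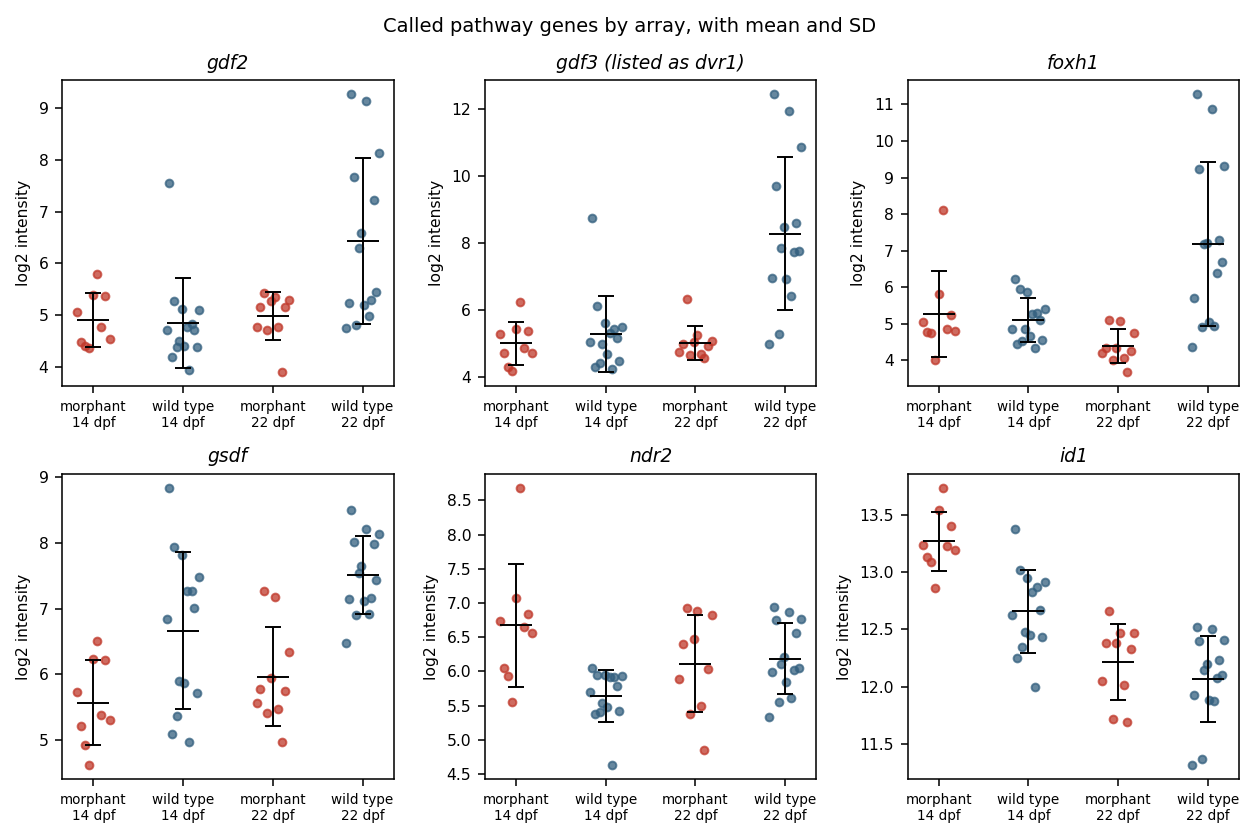
Log2 intensity on each array for the called genes gdf2, gdf3 (listed as dvr1), foxh1, gsdf, ndr2 and id1, with morphants left of wild type at 14 and then at 22 dpf, and bars for the mean and SD. At 22 dpf the wild-type arrays of gdf3 and foxh1 spread from 5.0 to 12.45 and from 4.35 to 11.28, and the morphants stay at or below 6.34 and 5.10.

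Oocyte markers were also compared between the groups at 22 dpf. All 9 fell in morphants, and their mean level per array was 5.37 to 7.89 in morphants and 6.56 to 12.80 in wild type, so that the wild-type trunks differed widely among themselves. At 14 dpf 1 of 9 fell, with mean levels of 5.29 to 6.51 in morphants and 5.67 to 6.89 in wild type. For 13 named genes the level was set against the mean of the oocyte markers across the wild-type samples of 22 dpf, with the pairs averaged (n = 11) and p from a two-sided permutation test, adjusted by Benjamini-Hochberg over the 13. This relation was chosen after the values had been seen. It covers wild-type samples only, and the part of oocyte markers in the differences between morphants and wild type was not tested.

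gdf2 went with the oocyte markers at r = 0.748 (permutation p = 0.00828, adjusted 0.0269) and rho = 0.764 (permutation p = 0.00875, adjusted 0.0284). Without the 2 samples farthest from the median oocyte mean r was 0.721. Those 2 were wild-type arrays 23 and 11, with the lowest oocyte means (6.56 and 6.93), so the samples with the highest means stayed in. tgfbrap1 had r = 0.778 (permutation p = 0.00441, adjusted 0.0191) and rho = 0.818 (permutation p = 0.00332, adjusted 0.0144). Its r was 0.973 without the same 2 samples. foxh1 had r = 0.902 (permutation p = 8e-05, adjusted 0.00104) and rho = 0.936, and gdf3 had r = 0.796 (permutation p = 0.00404, adjusted 0.0191) and rho = 0.864. Without the 2 samples these were 0.989 for foxh1 and 0.854 for gdf3.

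Among the 6 samples with title numbers from 13 on, r was 0.880 for gdf2, 0.808 for tgfbrap1, 0.841 for foxh1 and 0.874 for gdf3. The 5 samples with lower numbers were too few for a value. smad2 had r = 0.664 (permutation p = 0.0261, adjusted 0.0565) and rho = 0.745 (permutation p = 0.0114, adjusted 0.0295), so its call depended on the measure. id1 had r = -0.676 (permutation p = 0.0236, adjusted 0.0565). The other 7, bmp16, bmp5, gdf10a, smad5, tgfbi, gsdf and ndr2, did not pass by either measure. Liver markers, set beside gdf2 for the organ that makes it in mammals, had 0 of 7 called at 22 dpf. Of these 7, 5 had a negative difference, with a median of -0.44, and mean levels per array were 7.01 to 12.69 in morphants, with a median of 7.31, and 7.30 to 11.73 in wild type, with a median of 7.91. The part of the liver markers in the difference of gdf2 was not tested. Exocrine pancreas markers were called higher for 3 of 8 at 22 dpf, and all 8 differences were positive, from 1.46 to 3.42. Their mean levels per array were 9.17 to 14.14 in morphants and 8.96 to 14.11 in wild type. The medians of these levels were 13.01 in morphants and 9.98 in wild type. The part of the pancreas markers in the 22 dpf differences of gdf2, gdf3, foxh1, gsdf and the other genes was not tested. Leukocyte (0 of 13), muscle (0 of 10), bone and cartilage (0 of 8) and skin (0 of 7) markers were not called at 22 dpf. All 8 bone and cartilage differences were positive, from 0.01 to 0.71, with a median of 0.14. The part of these markers in the 22 dpf differences was not tested.

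**Figure D5:**
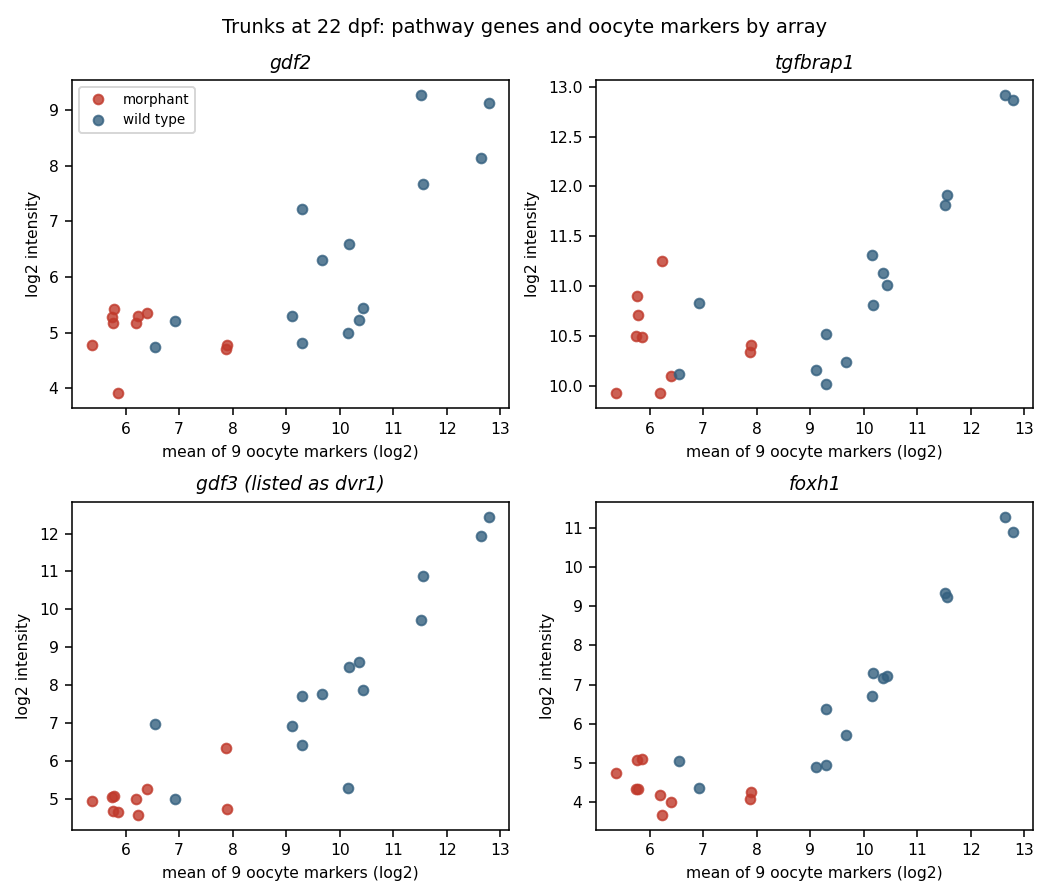
Log2 intensity of gdf2, tgfbrap1, gdf3 (listed as dvr1) and foxh1 against the mean log2 intensity of 9 oocyte markers, 1 point per array at 22 dpf, morphants and wild type. The morphant arrays lie at 5.37 to 7.89 on the x axis and the wild-type arrays at 6.56 to 12.80, and the 4 wild-type arrays beyond 11 on the x axis hold the 4 highest values of each gene. Among these 4, arrays 5 and 6 are the pair with the highest correlation (0.893), drawn here as separate points.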

How the data were processed

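Trunk RNA was measured on 47 1-colour arrays in 4 groups taken from the labels. The authors deposited 1 log2 intensity per row and array. The submitters' processing notes name RMA, with a version not given in the sources used here, and nothing states whether both ages were normalized together. No filter, rescaling or imputation was applied to these values. Each row was fitted with limma 3.58.1 (R 4.3.3) on 4 group means and eBayes, leaving 43 degrees of freedom (37 with 6 near-duplicate pairs averaged), for morphant minus wild type at each age and the difference of these. P values were adjusted by Benjamini-Hochberg over all 31475 rows. Permutation tests drew 1e+05 resamples over the 11 wild-type samples, with ranks and the adjustment of their p values from scipy 1.17.1. The fit was tested on simulated data.

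Arrays have no read depth, so their number limits the precision. Nothing beyond the labels shows that replicates come from separate fish, and p values then measure the spread between these samples. Near-duplicates were array pairs of a group whose deviations, over rows whose mean reached 8, correlated above 0.65 (5 pairs) or 0.6 (6 pairs, chosen after seeing the data).

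The members, lists and tests were chosen with earlier results of these data known. Genes are named by a rule: called members, the 2 members of each role with the smallest p at each age, called genes of the pathway list with amh, gsdf, id1, id2a and id3, and the 3 highest and lowest members by mean. Genes named beyond this rule were picked after their values were seen. Marker lists for germ cells, oocytes, leukocytes, muscle, bone and cartilage, skin, gonad soma, liver and exocrine pancreas are textbook genes. Symbols were matched through NCBI gene tables. Alternatives were other samples in the fit, near-duplicates averaged, title numbers as a batch, other scalings, a filter on dim rows, another variance model and leaving out each array, or morphant arrays 1 and 2 at 22 dpf together. Sequences are not used here, and 1 member enters the counts but is not reported here by itself.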

Additional observations from a re-analysis of the deposited data

Results flagged for a closer look

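In groups of 4 to 10 arrays, the highest or lowest array was checked for a gap to the others that was large for the group's range (Dixon's test at 0.05), in 74 morphant groups of named genes, and 14 stood apart, where chance gives about 1 in 20 groups. These groups hold the same arrays for many genes and are not independent, and some genes were named after their values were seen. Whether 14 exceeds chance was therefore not tested. Wild-type groups, with 14 arrays, were not checked.

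Morphant array 18 at 22 dpf stood apart for 4 genes: low for gdf10a (6.63, the nearest other array at 7.79), gdf10b (8.58, nearest 10.04) and inhbb (8.81, nearest 9.41), and high for bmp1a (11.10, nearest 10.31). Morphant array 2 at 14 dpf stood apart for 3: low for bmp16 (6.62, nearest 8.21) and bmp2a (5.52, nearest 7.45), and high for ndr2 (8.69, nearest 7.07). Morphant array 15 at 14 dpf was high for bmp1a (11.87, nearest 10.22) and foxh1 (8.11, nearest 5.83). At 22 dpf morphant array 17 was high for inha (6.26, nearest 5.20) and low for smad6a (8.12, nearest 8.96). Also at 22 dpf, array 14 was low for gdf2 (3.90, nearest 4.71), array 2 was high for gdf3 (6.34, nearest 5.25) and array 16 was low for id3 (7.76, nearest 8.51).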

How the results depend on the processing

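No paired analysis was possible because morphants and wild type of an age share no title number. Of the counts given, those of members called for the difference between ages were 0 under every alternative. With only the arrays of an age in the fit, 195 rows in place of 780 were called at 14 dpf, and the member called at 22 dpf was gdf10a, not gdf2. With 5 pairs averaged, 669 rows were called at 22 dpf (in place of 1097), 0 members at 22 dpf and 102 rows for the difference between ages (in place of 203). With 6 pairs averaged the rows were 400, 667, 66 and, for the mean of both ages, 1176 (in place of 1975), with 0 members at 22 dpf and 4 (in place of 7) for the mean. With title numbers 1 to 12 alone, 45, 455, 0 and 369 rows were called, with 0 members at 22 dpf and 0 for the mean. With numbers from 13 alone, 462 rows were called at 22 dpf, 30 for the difference and 802 for the mean, with 1 member at 14 dpf, 0 at 22 dpf and 1 for the mean. These settings hold fewer samples. At 14 dpf, 1 member was called with title number groups as a term, 1 with arrays centred on their median and 2 over rows whose mean reached 6. At 22 dpf 0 were called after quantile normalization of all arrays and 0 over rows whose mean reached 6, where gdf2 was too dim to enter. With morphant arrays 1 and 2 at 22 dpf both left out, 907 rows and 0 members were called at 22 dpf and 4 members for the mean. Without 1 array each, rows ranged from 498 to 1065 (14 dpf), 897 to 1283 (22 dpf), 123 to 340 (difference) and 1671 to 2204 (mean), and members from 0 to 3, 0 to 2, 0 to 0 and 4 to 8. Centring each array shifted all rows by a median of 0.049 at 14 dpf and 0.039 at 22 dpf and kept the sign of 57 of 60 members at each age, and the called rows at 14 dpf were 493 higher and 328 lower, in place of 362 and 418. No called result reversed, while some uncalled differences changed sign between title number groups, among them bmp2a at 14 dpf (-0.23 among numbers 1 to 12, against 0.83 over all). The cause of these changes was not tested further. Dim rows such as inha, nog5 and gdf6b, with means of 4.98 to 5.24, and gdf2, with a mean of 5.36, lie near the lower end of the scale.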
